A study of Mus musculus with 12 samples.

Results

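The transcription factors that drive and maintain the fat cell state were followed in brown adipocytes given the organophosphate insecticide chlorpyrifos (CPF). The genes were chosen by symbol, as rows of the table whose gene name is on the list, and all 10 were found among the 14775 genes of the table: Pparg, Cebpa, Cebpb, Cebpd, Klf15, Rxra, Ebf1, Ppara, Nr1h3 and Stat5a. The rule used no measured value, but the list was chosen with earlier results of these data known. All 10 passed the filter of a mean of at least 10 normalized counts that 13531 genes passed. CPF-treated cells received 1 pM CPF for 4 h, and vehicle-treated cells received DMSO for the same 4 h, with 6 libraries in each group and 12 in all. Both groups were TMCON cells, an SV40-immortalized murine brown preadipocyte line differentiated with IBMX, indomethacin, dexamethasone, T3 and insulin and then kept in T3 and insulin. Both groups were treated in Krebs-Ringer bicarbonate buffer with HEPES, CaCl2 and fatty-acid free BSA. The cells are 1 cultured line, and the labels do not say whether the libraries of a group came from separate cultures, so p-values measure only the spread between these libraries.

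Differentiation of a preadipocyte is a cascade of transcription factors. Hormonal and cAMP signals first raise C/EBPβ and C/EBPδ, which then turn on PPARγ and C/EBPα, and PPARγ and C/EBPα keep each other expressed and switch on the genes of lipid storage. PPARγ, PPARα and LXRα (the product of Nr1h3) are nuclear receptors that bind DNA as partners of RXRα, while EBF1, KLF15 and STAT5A act beside them on overlapping sets of genes. In brown fat PPARα is also known for driving fatty acid oxidation genes and for working with the thermogenic program.

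None of the 10 factors differed between CPF-treated and vehicle-treated cells at an adjusted p under 0.05 (limma). The same test called 0 of all 13531 genes (0%). With whole reads in place of normalized counts, 0 genes passed in edgeR, and in DESeq2 0 were higher and 4 lower (0.0271%), those 4 being Col8a1, Flna, Lrrc8d and Hjurp, named here after their values were seen. At an unadjusted p under 0.05, 1 of the 10 factors was higher (Cebpa), against 2.77% of all genes tested, and 0 were lower, against 4.55%. The CPF and vehicle values overlapped for all 10, and only 63 genes (0.466%) had groups that did not overlap. Log2 fold changes were positive for 8 of 10, with a median of 0.053, against 49.6% of all genes and a median of -0.0015.

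Summed over the genes of the table, the libraries held 9313253 to 14166615 recovered reads in CPF-treated cells and 7875502 to 12100594 in vehicle-treated cells. Depth differed by replicate number, at 7875502 to 10666098 in replicates 1 to 3 and 10678777 to 14166615 in replicates 4 to 6. CPF replicate 1 and vehicle replicate 2 stood apart on the first principal component of all genes, with scores of 33.0 and 31.5, against -13.7 to 6.12 for the other 10 libraries, and this component held 29.1% of the variance. Of the markers of the labelled cell type, 8 of 8 for adipocytes and 7 of 8 for brown adipocytes were measured, and Dio2, which makes active thyroid hormone, was not analysed here. Of the markers of other cells, 10 of 10 for preadipocytes and fibroblasts, 2 of 5 for macrophages, 0 of 5 for endothelium and 1 of 5 for skeletal muscle were measured. In bulk RNA, fewer cells of a type and less RNA per cell cannot be told apart. Ucp1, the uncoupling protein of brown fat, averaged 1593 ± 335 in CPF-treated cells and 2850 ± 1338 in vehicle-treated cells (SD, n = 6 each, normalized counts), with a log2 fold change of -0.75 (SE 0.25, adjusted p = 0.611, limma). Its highest value, 5204, was in vehicle replicate 2, and the log2 fold change was -0.48 without that library and CPF replicate 1.

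The bases before 3 of the transcription starts are shown because these genes carry the largest fold change (Cebpa), the widest spread between vehicle libraries (Cebpb) and the highest level (Pparg). Windows of 250 bases upstream of each annotated start were taken from RefSeq on GRCm38.p6, and 9 of the 10 factors had at least 1 window. All 3 genes shown lie on the plus strand, at chr7:35119043-35119292 for Cebpa, chr2:167688665-167688914 for Cebpb and chr6:115421816-115422065 for the third of 3 Pparg starts. Capitals mark a TATA box (TATAAA) in Cebpa, cAMP response element half-sites (TGACG) in Cebpb and relaxed C/EBP matches (TTNCNNAA) in Pparg, on either strand. Of the 3 Pparg windows, only the window shown held such C/EBP matches, and which start these cells used was not tested.
Cebpa: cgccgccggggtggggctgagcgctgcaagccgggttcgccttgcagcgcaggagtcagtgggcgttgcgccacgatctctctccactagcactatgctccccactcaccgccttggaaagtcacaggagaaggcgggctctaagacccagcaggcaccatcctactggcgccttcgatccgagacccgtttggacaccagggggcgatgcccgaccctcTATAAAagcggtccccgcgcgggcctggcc
Cebpb: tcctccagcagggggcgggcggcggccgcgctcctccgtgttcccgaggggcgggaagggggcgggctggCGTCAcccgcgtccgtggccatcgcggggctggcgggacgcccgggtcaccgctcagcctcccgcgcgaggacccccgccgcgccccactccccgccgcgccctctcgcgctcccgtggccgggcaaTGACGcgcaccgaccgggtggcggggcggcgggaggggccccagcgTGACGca
Pparg: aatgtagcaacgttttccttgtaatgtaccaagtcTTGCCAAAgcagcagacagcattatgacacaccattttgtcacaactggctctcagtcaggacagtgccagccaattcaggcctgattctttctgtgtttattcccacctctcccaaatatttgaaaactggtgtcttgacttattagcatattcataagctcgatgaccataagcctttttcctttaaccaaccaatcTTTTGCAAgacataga
The base before the start is position -1, so the TATA box of Cebpa began at position -30, the half-sites of Cebpb at positions -180, -53 and -7, and the C/EBP matches of Pparg at positions -215 and -16. A TATA box stood in 12.4% of all 32817 windows of this length, a cAMP half-site in 17.7% and a relaxed C/EBP match in 36.8%. The half-site is the first part of the full cAMP response element TGACGTCA, which stood in 1.55% of all windows and in none of the 9 factors. The 9 factors have 15 windows, since some have several starts, and GC boxes (GGGCGG) stood in 7 of these 15 (46.7%), against 32.7% of all windows. Of the same 15, a TATA box stood in 2 (13.3%) and a cAMP half-site in 3 (20%), near the shares of all windows. A relaxed C/EBP match stood in only 2 of the 15 (13.3%), below the 36.8% of all windows. No window of the 9 held the direct repeat bound by PPAR and RXR (AGGTCA, 1 further base and AGGTCA again, in 0.0335% of all windows) or the C/EBP palindrome (TTGCGCAA, 0.165% of all windows), which says only that these letters are not in these windows.

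Pparg encodes the receptor that fat cell differentiation requires, and it lies at chr6:115360951-115490399 (GRCm38). Its normalized counts had a lowest value of 4532, a median of 6024 and a highest value of 6549 in CPF-treated cells, against 5302, 5838 and 6188 in vehicle-treated cells. The CPF values bracketed the vehicle values, with 1 library below and 2 above all of them. The means were 5846 ± 701 in CPF-treated cells and 5758 ± 342 in vehicle-treated cells (SD, n = 6 each), with a log2 fold change of 0.014 (SE 0.081, adjusted p = 0.981, limma). The 95% confidence interval of the ratio of CPF to vehicle was 0.896 to 1.14.

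Cebpa encodes C/EBPα, the partner of PPARγ in keeping the mature fat cell state, and it had the largest fold change of the 10 (chr7:35119293-35121928). CPF replicates 1 to 6 had 665, 798, 819, 987, 816 and 875 normalized counts, against 818, 597, 634, 754, 769 and 571 in vehicle replicates 1 to 6. All but CPF replicate 1 lay above the vehicle mean, 3 of 6 lay above every vehicle library, and the groups overlapped. Cebpa averaged 827 ± 105 in CPF-treated cells and 691 ± 103 in vehicle-treated cells (SD, n = 6 each), a ratio of 1.20 with a 95% confidence interval of 1.03 to 1.39. The log2 fold change was 0.26 (SE 0.10), with p = 0.0205 before adjustment and an adjusted p = 0.627 over all genes tested (limma), and p = 0.0455 in a two-sided exact permutation test without adjustment. Replicates 1 to 3 alone gave a log2 fold change of 0.16 and replicates 4 to 6 alone gave 0.36. The value stayed positive under all 25 alternatives, at 0.16 to 0.36, with the lowest adjusted p at 0.111 (limma with library weights). These alternatives reuse the same libraries. On the log2 scale the 95% interval included 0 without CPF replicate 4 (-0.0045 to 0.42) and without vehicle replicate 6 (-0.0050 to 0.43). It also included 0 with replicates 1 to 3 alone (-0.16 to 0.49).

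Cebpb and Cebpd encode the early C/EBP factors that hormones induce at the onset of differentiation. Cebpb (chr2:167688915-167690418) had 1208, 1703 and 1927 normalized counts as lowest, median and highest in CPF-treated cells, against 1389, 1693 and 2637 in vehicle-treated cells. The medians of the groups were close, and the 2 highest libraries of the 12 were vehicle replicates 2 and 4. The means were 1653 ± 260 in CPF-treated cells and 1853 ± 509 in vehicle-treated cells (SD, n = 6 each), with a log2 fold change of -0.14 (SE 0.16, adjusted p = 0.859, limma). Without vehicle replicate 4 it was -0.028. An antisense gene, Tmem189, covers 20.7% of the Cebpb exon, and the counting kept strands apart.

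Cebpd (chr16:15887286-15891031) had 4358, 5017 and 6752 normalized counts as lowest, median and highest in CPF-treated cells, against 4109, 4849 and 6182 in vehicle-treated cells. Its highest value was in CPF replicate 1, and the other 5 CPF libraries lay at 4358 to 5210, inside the vehicle range. The log2 fold change was 0.078 (SE 0.11, adjusted p = 0.892, limma), and -0.0011 without CPF replicate 1. The antisense gene Spidr covers 15.0% of the Cebpd exon.

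Ppara encodes PPARα, the receptor of fatty acid oxidation genes, and no other member spread as widely among CPF-treated cells (chr15:85734983-85802819). CPF replicates 1 to 6 had 265, 658, 606, 667, 567 and 712 normalized counts, against 598, 472, 475, 602, 553 and 493 in vehicle replicates 1 to 6. CPF replicate 1 was the lowest of the 12 libraries, while 4 of the other 5 CPF libraries lay above every vehicle library. The means were 579 ± 162 in CPF-treated cells and 532 ± 60.1 in vehicle-treated cells (SD, n = 6 each), with a log2 fold change of 0.063 (SE 0.20, adjusted p = 0.957, limma). Without CPF replicate 1 it was 0.27 (SE 0.079, adjusted p = 0.114, limma), and without that library and vehicle replicate 2 it was 0.24 (adjusted p = 0.145, limma). Replicates 1 to 3, which hold CPF replicate 1, gave -0.11, and replicates 4 to 6 gave 0.24.

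Rxra encodes RXRα, the shared partner of these receptors, and its highest library was 1.21 times its lowest, the smallest such ratio of the 10 (chr2:27676440-27762957). Its normalized counts were 793, 897 and 936 as lowest, median and highest in CPF-treated cells, against 774, 862 and 929.8 in vehicle-treated cells. The groups covered nearly the same range, with means of 888 ± 51.4 in CPF-treated cells and 862 ± 51.3 in vehicle-treated cells (SD, n = 6 each). The log2 fold change was 0.043 (SE 0.057, adjusted p = 0.877, limma), and the 95% confidence interval of the ratio of CPF to vehicle was 0.947 to 1.12.

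Nr1h3 encodes LXRα, a sensor of oxidized cholesterol that turns on lipogenic genes (chr2:91184061-91202834, minus strand, with 1.35% of its exons shared with Gm13783 on that strand). It had 215, 311 and 354 normalized counts as lowest, median and highest in CPF-treated cells, against 208, 293 and 318 in vehicle-treated cells. Each group held 1 low library, CPF replicate 1 and vehicle replicate 3, and the others lay at 303 to 354 in CPF-treated cells. Its log2 fold change was 0.10 (SE 0.12, adjusted p = 0.864, limma), and 0.20 without CPF replicate 1 (adjusted p = 0.304, limma). Leaving out vehicle replicate 3 instead gave 0.013 (adjusted p = 0.981, limma).

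Klf15 encodes a Krüppel-like factor that glucocorticoids induce and that controls amino acid catabolism, and it had the fewest reads of the 10, from 121 (chr6:90462576-90475238). Counting error alone gives a coefficient of variation of 9.09% at that depth. Its normalized counts were 126, 210 and 267 as lowest, median and highest in CPF-treated cells, against 154, 175 and 246 in vehicle-treated cells. Both ends of the range were CPF libraries, replicate 1 at the low end and replicates 2 and 6 at the high end. CPF over vehicle gave a log2 fold change of 0.15 (SE 0.17, adjusted p = 0.856, limma), and 0.28 without CPF replicate 1 (adjusted p = 0.281, limma).

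Ebf1 encodes early B cell factor 1, which is needed in adipocyte commitment (chr11:44617317-45008091). Its normalized counts were 1195, 1880 and 2014 as lowest, median and highest in CPF-treated cells, against 1475, 1853 and 1909.6 in vehicle-treated cells. The lowest library was CPF replicate 1, and the other 5 CPF libraries were tightly grouped, at 1856 to 2014. All 5 lay above the vehicle mean of 1780 ± 167 (SD, n = 6), but so did 4 of the 6 vehicle libraries. Vehicle replicate 3 was the lowest of its group, at 1475. The log2 fold change was -0.00045 (SE 0.11, adjusted p = 0.999, limma), 0.11 without CPF replicate 1 and 0.13 without that library and vehicle replicate 2 (adjusted p = 0.348, limma). Without vehicle replicate 3 alone it was -0.053 (adjusted p = 0.911, limma).

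Stat5a encodes a transcription factor that growth hormone and other cytokines activate and that promotes adipogenesis (chr11:100859351-100885169). It had 2263, 2400 and 3228 normalized counts as lowest, median and highest in CPF-treated cells, against 2291, 2347 and 2680 in vehicle-treated cells. Its highest value was in CPF replicate 1, and the other CPF libraries lay at 2263 to 2517. For Stat5a this left a log2 fold change of 0.033 (SE 0.082, adjusted p = 0.947, limma), and -0.041 without CPF replicate 1. Of the 50-base stretches of its transcript, 8.21% also occur in Stat5b, so those reads may be lost under the authors' minimum alignment quality.

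**Figure D1:**
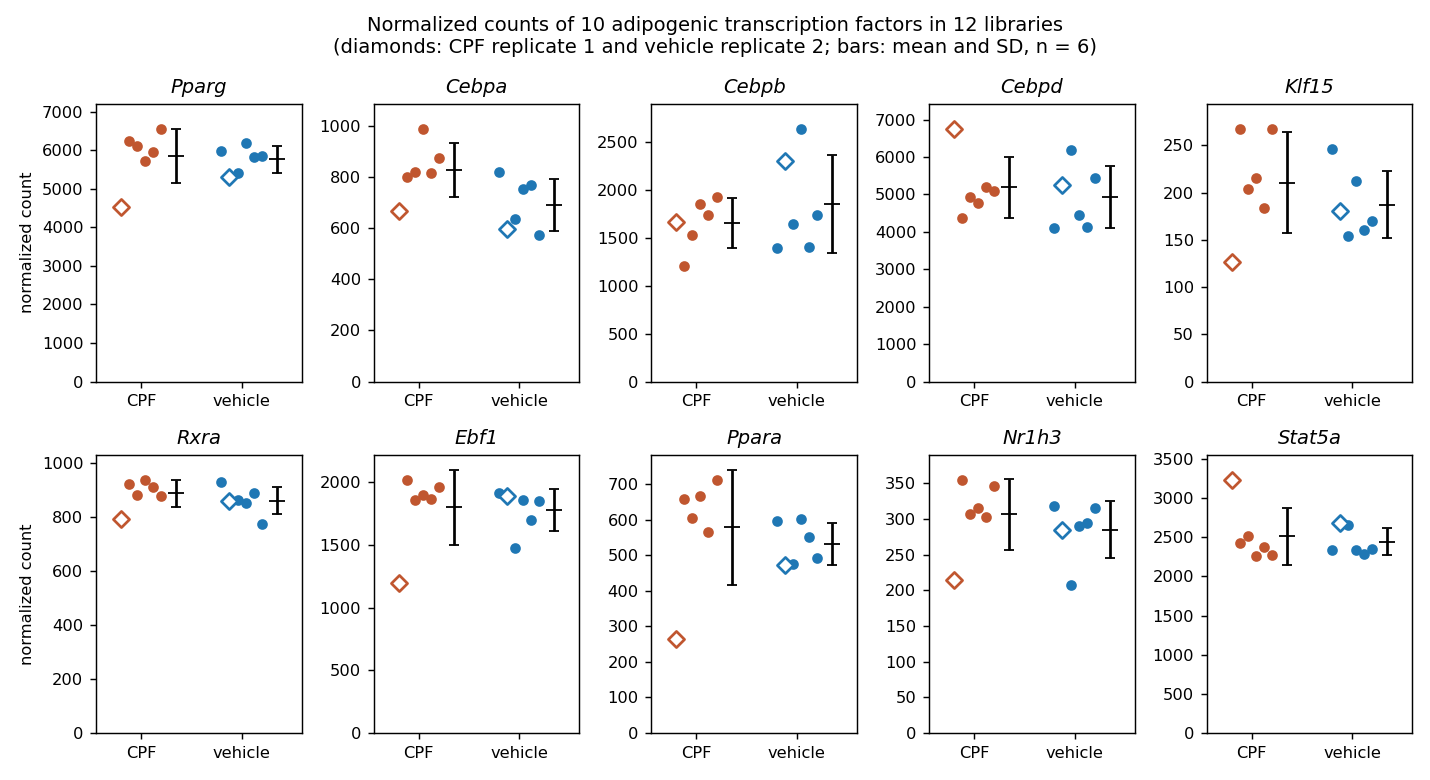
Normalized counts (y axis, from 0) of each of the 10 factors in CPF and vehicle libraries (x axis), with the mean and SD of 6 libraries as black bars. Diamonds mark CPF replicate 1 and vehicle replicate 2. For Ppara the diamond of CPF replicate 1 is at 265 while the other CPF libraries sit at 567 to 712, and for Cebpa 3 of the 6 CPF libraries sit above every vehicle library.

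The departures in CPF replicate 1 ran in both directions. That library was the lowest of the 12 for 4 factors (Pparg, Klf15, Ebf1 and Ppara) and the highest for 2 (Cebpd and Stat5a). Over all genes tested it was the lowest for 22.2%, the highest for 18.4% and either for 40.6%. Relative to the median of the other 5 CPF libraries, it had a ratio of 0.403 for Ppara, 0.586 for Klf15, 0.631 for Ebf1, 0.682 for Nr1h3 and 0.742 for Pparg. The ratio was 1.37 for Cebpd and 1.36 for Stat5a, with Cebpb nearest to 1 at 0.956. Ebf2, a relative of Ebf1 that marks brown preadipocytes, had 508 normalized counts there, against 1035 to 1273 in the other CPF libraries.

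Markers moved with that library too. The 8 adipocyte markers summed to 59484 normalized counts in CPF replicate 1 and to 94016 to 105142 in the other CPF libraries, against 74577 to 94218 in vehicle-treated cells. The 10 preadipocyte and fibroblast markers summed to 52615 in CPF replicate 1 and to 39278 to 46604 in the other CPF libraries, against 79696 in vehicle replicate 2 and 42933 to 50466 in the other vehicle libraries. The 7 brown adipocyte markers measured summed to 7772 in CPF replicate 1 and to 10825 to 13739 in the other CPF libraries, against 11421 to 15120 in vehicle-treated cells. The macrophage markers Adgre1, Ptprc and Lyz2 were not analysed here, and the 2 measured summed to 132 to 162 in CPF-treated cells, against 101 to 160 in vehicle-treated cells. The part of cell composition in the values of the 10 factors was not tested.

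**Figure D2:**
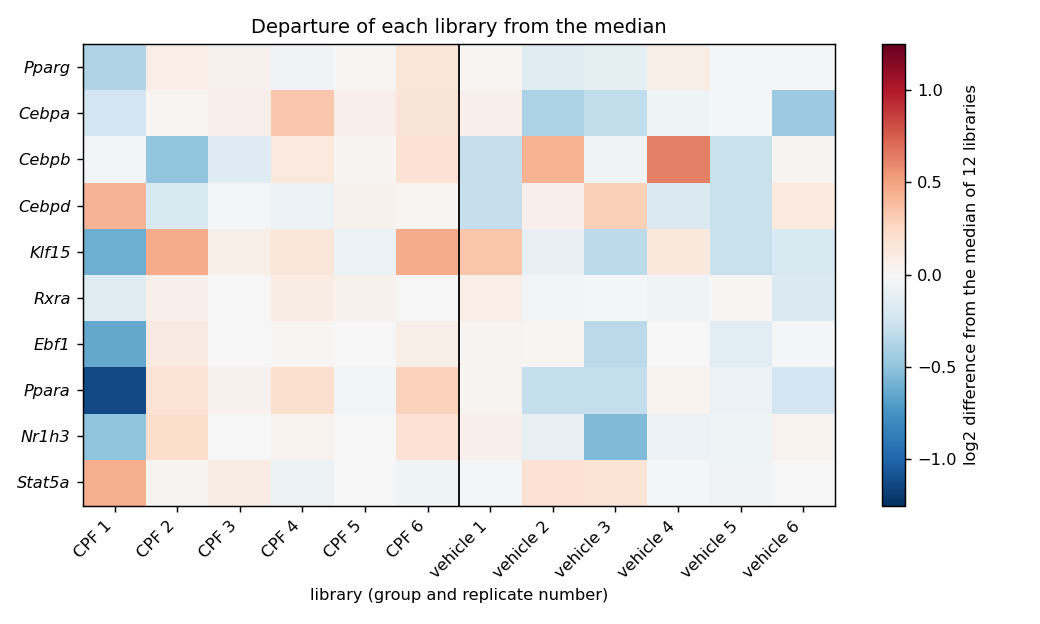
Log2 difference of each library from the median of the 12 libraries (color scale) for the 10 factors (rows), with CPF replicates 1 to 6 left of the line and vehicle replicates 1 to 6 right of it. The CPF 1 column is blue for Pparg, Klf15, Ebf1, Ppara and Nr1h3 and red for Cebpd and Stat5a, while Cebpb is most red in vehicle 4.

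Leaving out the libraries that stood apart changed the size of several fold changes but no call for the 10 factors. Without CPF replicate 1 the median log2 fold change of the 10 was 0.0996 and 3 of them were higher at an unadjusted p under 0.05 (Cebpa, Klf15 and Ppara), against 8.49% of all genes higher, while 11 genes (0.0813%) passed the adjusted threshold. Without that library and vehicle replicate 2 the median was 0.103, 3 of the 10 were higher at an unadjusted p under 0.05 (Cebpa, Ebf1 and Ppara), against 7.39% of all genes higher, and 54 genes passed the adjusted threshold (0.185% of genes higher and 0.215% lower), none of them among the 10. Within replicates 4 to 6 the median was 0.106, 22 genes passed (0.163%) and 2 of the 10 were higher at an unadjusted p under 0.05 (Cebpa and Ppara), against 7.12% of all genes higher, while replicates 1 to 3 gave a median of 0.0028 and 0 genes passing (0%, with 1.45% at an unadjusted p under 0.05 in either direction). Replicates 4 to 6 differed from replicates 1 to 3 for 88 genes (0.65%), again with none of the 10, and Stat5a was nearest, at a log2 difference of -0.18 (SE 0.069, adjusted p = 0.253, limma).

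**Figure D3:**
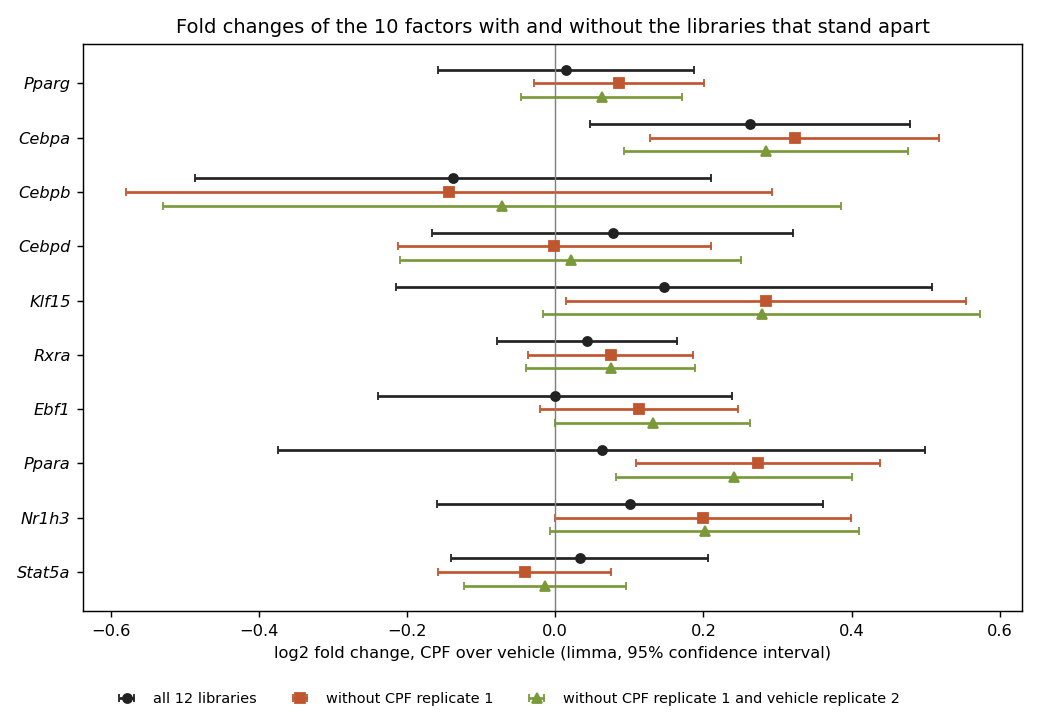
Log2 fold change of CPF over vehicle with its 95% confidence interval from limma (x axis) for the 10 factors (rows), over all 12 libraries (circles), without CPF replicate 1 (squares) and without that library and vehicle replicate 2 (triangles). The interval of Cebpa lies above 0 in all 3, at 0.26, 0.32 and 0.28, and that of Ppara narrows once CPF replicate 1 is left out, at 0.063, 0.27 and 0.24, none passing the adjusted threshold.

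Levels of different genes were compared as normalized counts per kb of exon. Pparg was highest, at 1980 ± 237 per kb in CPF-treated cells and 1950 ± 116 in vehicle-treated cells (SD, n = 6 each), and 175 of 14766 genes (1.19%) had a higher level. Cebpd followed at 1385 ± 219 per kb in CPF-treated cells and 1316 ± 223 in vehicle-treated cells, and then Cebpb at 1099 ± 173 in CPF-treated cells and 1232 ± 338 in vehicle-treated cells. Thus the early C/EBP factors were among the most abundant of the 10 in these differentiated cells, and no earlier stage was measured. Stat5a was next, at 352 ± 50.9 per kb in CPF-treated cells and 343 ± 24.5 in vehicle-treated cells, with no overlap with Cebpb in any of the 12 libraries. Cebpa was at 314 ± 39.9 per kb in CPF-treated cells and 262 (range 217 to 310) in vehicle-treated cells, and its range overlapped that of Stat5a but not that of Ebf1. In vehicle-treated cells the remaining levels were 182 ± 17.1 per kb for Ebf1, 158 ± 9.40 for Rxra, 139 ± 15.7 for Ppara, 113 ± 16.0 for Nr1h3 and 67.1 ± 12.8 for Klf15, and each of these overlapped the next in the order.

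**Figure D4:**
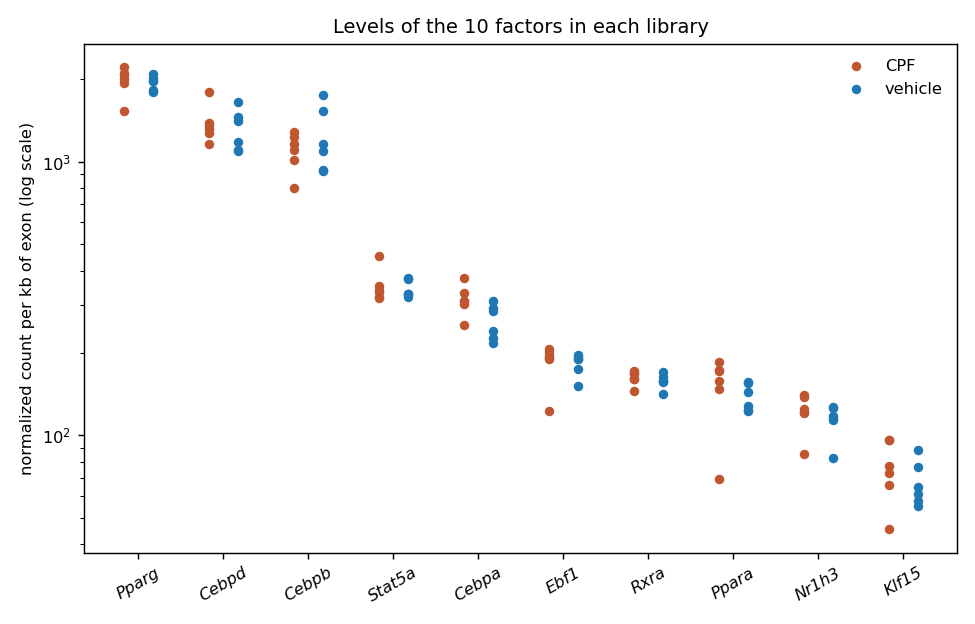
Normalized counts per kb of exon (y axis, log scale) of the 10 factors, ordered by their vehicle mean (x axis), 1 point per library with CPF left of vehicle. Pparg, Cebpd and Cebpb lie at 803 to 2218 per kb in all libraries, and the other 7 factors lie at 45.3 to 453.

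Correlations between the factors over the 12 libraries are given as a description, since CPF replicate 1 is far from the rest and the libraries share the scaling of their depth. Among the 45 pairs, Pparg and Ppara had r = 0.93 (Spearman rho 0.79), and r was 0.74 without CPF replicate 1 and vehicle replicate 2, the libraries farthest from the median of Pparg. Ebf1 and Nr1h3 had r = 0.90, and 0.96 without those libraries. For this pair r was 0.70 without CPF replicate 1 and vehicle replicate 3, the libraries farthest from the median of Ebf1. Klf15 and Ppara had r = 0.85, and 0.87 without CPF replicate 1 and vehicle replicate 2. Stat5a ran against Ppara with r = -0.90, but only -0.53 without them, so that this value rests in large part on those libraries. Cebpb stood outside this pattern, with r from -0.31 (Rxra) to 0.21 (Cebpd) for its 9 pairs. Of all genes tested, those most like Pparg were Adig (r = 0.97, the fat cell protein adipogenin), Eif3l (r = 0.96, a translation initiation factor) and Ndufb4 (r = 0.96, a subunit of respiratory complex I). Those most opposite were Il6st (r = -0.97, the shared receptor of interleukin 6 family cytokines), Tsr1 (r = -0.96, a ribosome maturation factor) and Hnrnpu (r = -0.96, a nuclear RNA-binding protein), and Ppara ranked 45 of 13530 genes.

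Relatives of the 10 factors were set beside them. Of 17 relatives tested, 6 had a positive and 11 a negative log2 fold change, with a median of -0.062, and 0 passed the adjusted threshold. Ppard, Rxrb, Nr1h2 and Stat5b, the broadly expressed counterparts of the receptors and of Stat5a, had log2 fold changes of -0.041, 0.022, -0.0060 and 0.010. Rxrg, the RXR form of muscle and brain, had 0.16, Cebpg had -0.11 and Ebf2 had -0.18. Without the libraries that stood apart, Rxrg had 0.39 and Ebf2 had 0.053. At an unadjusted p under 0.05, 0 of the 17 relatives were higher, against 2.77% of all genes, and 3 were lower, against 4.55%, which were Ddit3 (-0.30, named after its values were seen), which encodes a C/EBP form that blocks others, and the Krüppel-like factors Klf5 and Klf6, both known to promote adipogenesis. Klf5 averaged 157 ± 14.1 in CPF-treated cells and 192 ± 17.5 in vehicle-treated cells (SD, n = 6 each), and Klf6 averaged 2916 ± 128 in CPF-treated cells and 3410 ± 329 in vehicle-treated cells. Every CPF library was below the vehicle mean for both, with log2 fold changes of -0.30 and -0.22, and the adjusted p was 0.569 for each (limma).

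Repressors of adipogenesis had 6 positive and 10 negative log2 fold changes among 16 tested, with a median of -0.036, and 0 passed. Runx1t1, which encodes a corepressor known to block C/EBPβ on the Cebpa promoter, had 69.9, 84.4 and 91.5 normalized counts as lowest, median and highest in CPF-treated cells, against 97.4, 107 and 171 in vehicle-treated cells. It is 1 of the 63 genes whose groups did not overlap. Its log2 fold change was -0.48 (SE 0.13, adjusted p = 0.569, limma), with p = 0.00216 in the two-sided exact permutation test, the smallest p that this test can give, without adjustment. Without CPF replicate 1 and vehicle replicate 2 it was -0.38 (adjusted p = 0.0982, limma). Zfp521, a zinc finger protein that counters EBF1, had a log2 fold change of -0.20 (adjusted p = 0.660, limma). Other activators of adipogenesis had 6 positive and 7 negative values among 13 tested (median -0.018), with Klf5 and Klf9 (0.099, and 0.043 without those libraries) at the smallest p, and 17 coregulators of nuclear receptors had 11 positive and 6 negative values (median 0.028), with the corepressor parts Hdac3 (0.078) and Ncor1 (0.084) at the smallest p.

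Genes that the 10 factors are known to control were read as lists. PPARγ targets had 15 positive and 4 negative log2 fold changes among 19 tested, with a median of 0.096 and 0 past the adjusted threshold. Pnpla2, the main triglyceride lipase of fat cells, averaged 10458 ± 922 in CPF-treated cells and 8540 ± 1278 in vehicle-treated cells (SD, n = 6 each), with a log2 fold change of 0.30 (SE 0.096, adjusted p = 0.599, limma). Adipoq (0.23), Aqp7 (0.21) and Angptl4 (0.16) followed, of which Angptl4 was highest in CPF replicate 1 and the other 2 were lowest there. Without CPF replicate 1 and vehicle replicate 2 Adipoq had 0.35, Aqp7 0.32 and Angptl4 0.048, all 19 had a positive value, with a median of 0.21, and 12 were higher at an unadjusted p under 0.05, against 7.39% of all genes higher, but still 0 passed the adjusted threshold.

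PPARα targets were split, with 7 positive and 9 negative values among 16 tested and a median of -0.019. Pdk4, the kinase that inhibits pyruvate dehydrogenase, averaged 12027 ± 623 in CPF-treated cells and 9819 ± 1154 in vehicle-treated cells (SD, n = 6 each), with a log2 fold change of 0.30 (SE 0.080, adjusted p = 0.569, limma). Cpt1a, the entry enzyme of fatty acids into mitochondria, averaged 300 ± 36.0 in CPF-treated cells and 381 ± 74.6 in vehicle-treated cells, a log2 fold change of -0.33 (SE 0.12, adjusted p = 0.611, limma). The muscle and brown fat form Cpt1b had -0.31 and Acadm, of medium-chain oxidation, had 0.13. Without the libraries that stood apart, 13 of 16 were positive (median 0.12), with Cpt1a at -0.23, Cpt1b at -0.17 and Acadm at 0.27.

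C/EBP targets had 6 positive and 2 negative values among 8 tested (median 0.054), with haptoglobin (Hp) at 0.31, Lep at -0.39, Saa3 at -0.34 and Insr at 0.066. Leptin (Lep) had as few as 9 reads, in CPF replicate 1, and without the libraries that stood apart Lep was at -0.088 and Insr at 0.12. LXR targets had 6 positive and 5 negative values among 11 tested (median 0.0036), with Smpdl3a at 0.21, Mylip at 0.15, Abca1 at 0.098 and Pltp at 0.083, and all 11 were positive without the libraries that stood apart (median 0.16, with Mylip at 0.27 and Abca1 at 0.20). KLF15 targets had 4 positive and 1 negative value among 5 (median 0.11), with Bcat2 at 0.18, Gpt at 0.17, Prodh at 0.11 (0.32 without those libraries) and Acss1 at -0.11. Gpt, an alanine aminotransferase, was the 1 gene of all these lists that passed the adjusted threshold without CPF replicate 1 and vehicle replicate 2, at 0.28 (adjusted p = 0.0375, limma). STAT5 targets had 3 positive and 5 negative values among 8 (median -0.058), with Bcl6 at 0.17, Pim1 at -0.097, Igf1 at -0.19 and Aox1 at -0.041. Without those libraries 4 of the 8 were positive and 4 negative, with Pim1 at -0.043, Igf1 at 0.025 and Aox1 at -0.064.

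Genes of the inducing signals were read in the same way. Glucocorticoid-induced genes had 2 positive and 4 negative log2 fold changes among 6 (median -0.089), with Per1 at -0.18 and Sgk1 at 0.21, and cAMP-induced genes had 3 of each among 6 (median 0.054), with Pde4d at 0.15 and Nr4a2 at -0.18. Without the libraries that stood apart Sgk1 was at 0.084 and Pde4d at 0.24. All 8 adipocyte markers had a positive value (median 0.11), with Adipoq at 0.23 and Lpl at 0.11 (0.20 without the libraries that stood apart). All of them but Cfd are also among the PPARγ targets above, so these lists are not separate results. Without the libraries that stood apart all 8 were higher at an unadjusted p under 0.05 (limma), against 7.39% of all genes (median 0.24). Of the libraries that stood apart, CPF replicate 1 had the lowest sum of these markers in all 12. The 7 brown adipocyte markers all had a negative value (median -0.086), with Otop1 at -0.74 beside Ucp1, but without those libraries 3 of 7 were positive and Otop1 was at -0.45. Preadipocyte and fibroblast markers had 1 positive and 9 negative values (median -0.17), with Fbn1 at -0.17 and Pdgfra at -0.23. Without those libraries all 10 were negative (median -0.11). The macrophage marker tested, Cd68, had 0.079 (-0.0039 without those libraries), and the muscle marker Acta1 had 0.088 (-0.21 without them). None of these passed the adjusted threshold over the 12 libraries.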

How the data were processed

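Transcripts were measured in TMCON brown adipocytes treated with 1 pM CPF or DMSO vehicle for 4 h, in 6 libraries per group, made with a strand-keeping kit. The authors trimmed paired reads with Trimmomatic, aligned them to Ensembl GRCm38 with HISAT2, counted them per gene with htseq-count (reverse stranded, exons) and normalized with DESeq2. Versions of these tools: not given in the sources used here. The signal values that the authors deposited are these normalized counts for 14775 genes. The deposited table also holds 12 ratio columns by library and the authors' own fold changes, means and p-values, none of which were used. In each library, 100% of values were whole multiples of 1 read within 0.01 read, so whole reads were recovered.

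Genes with a mean of at least 10 (13531) were tested with limma 3.58.1 in R 4.3.3 (trend and robust settings, two-sided) after adding a pseudocount of 1 and taking log2, with Benjamini-Hochberg adjustment over all of them and a threshold of 0.05. Fold changes on this scale understate those of low genes. Single genes were also tested by exact permutation over all 924 arrangements, smallest p 0.00216, without adjustment. Alternatives were DESeq2 1.42.0 and edgeR 4.0.16 (both on the recovered reads), other scaling, filters, pseudocounts and weights, a replicate block, terms or subsets for replicate sets, and libraries left out. The scripts were tested on simulated data. The 10 factors, the gene lists and the tests were chosen with earlier results of these data known. Named genes are the 10 factors, 7 relatives, Ucp1, the 3 genes most like and 3 most unlike Pparg, and in each list the tested genes with the smallest p (2, or 4 for targets). Genes were joined by Ensembl identifier, 14766 of which are in GENCODE M21 (GRCm38), which gave positions and exon lengths. The limma intervals come from the spread between libraries, and only the counting error given for Klf15 comes from reads alone.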

Additional observations from a re-analysis of the deposited data

Results flagged for a closer look

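Within groups of 6, a library was set apart when its gap to the nearest other library relative to the group's range exceeded Dixon's 95% critical value, which chance gives in about 5% of groups. Of 128 groups of values examined, 31 met it, 22 of them in CPF replicate 1, and 6 of the 20 groups of the 10 factors did. CPF replicate 1 was apart as the highest CPF library for Cebpd (6752) and Stat5a (3228) and as the lowest for Ebf1 (1195), Ppara (265) and Nr1h3 (215). Vehicle replicate 3 was apart as the lowest vehicle library for Nr1h3 (208).

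Among target genes and relatives, CPF replicate 1 was apart as the lowest for Acadm (3457), Adipoq (5432), Aox1 (831), Bcat2 (595), Ebf2 (508), Gpt (949.9), Lpl (21068), Mylip (270.3) and Pde4d (218). It was apart as the highest for Acta1 (52.2), Angptl4 (7190), Klf9 (3956), Nr4a2 (97.1), Pdgfra (6338) and Saa3 (835). Its summed adipocyte markers (59484) were the lowest and its summed skeletal muscle markers, which are Acta1 alone (52.2), the highest. Vehicle replicate 2 was apart as the highest for Nr4a2 (110.4), Pdgfra (8783), Runx1t1 (171), Saa3 (1313) and the summed preadipocyte and fibroblast markers (79696). Vehicle replicate 3 was apart as the lowest for Ebf2 (842) and the highest for Nr1h2 (1224), and vehicle replicate 1 as the lowest for Sgk1 (94.9). Values are normalized counts.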

How the results depend on the processing

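The count of genes past the threshold was 0 over all 12 libraries and 4 with DESeq2, 22 with library weights, 22 with replicates 4 to 6 alone, 11 without CPF replicate 1 and 54 without CPF replicate 1 and vehicle replicate 2, and it ranged from 0 to 11 with 1 library left out. No factor of the 10 passed under any of the 25 alternatives, and their median log2 fold change ranged from 0.0028 to 0.106 (0.032 to 0.0996 with 1 library left out). Cebpa, Klf15, Nr1h3 and Cebpb kept their sign in all 25, but only Cebpa stayed away from 0, at 0.16 to 0.36. The ranges were 0.0029 to 0.29 for Klf15, 0.013 to 0.20 for Nr1h3 and -0.26 to -0.016 for Cebpb. Signs that turned had a main value near 0. Ebf1 had 0.014 with edgeR, 0.015 with DESeq2, 0.077 with library weights, 0.084 with replicates 4 to 6 and 0.13 without both libraries. Stat5a had -0.0047 with library weights, -0.016 with replicates 4 to 6 and -0.014 without both libraries. Rxra (-0.033) and Ppara (-0.11) turned with replicates 1 to 3. With 1 library left out, the ranges were -0.020 to 0.086 for Pparg, -0.0011 to 0.15 for Cebpd, -0.053 to 0.11 for Ebf1, -0.010 to 0.27 for Ppara and -0.041 to 0.061 for Stat5a. The cause was not tested.

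The labels do not say whether the replicate numbers pair the libraries. The correlation of same-numbered deviations was -0.21 to 0.26, and 1 of 6 numbers was best matched with its own. With only 6 numbers, and with libraries that stood apart among them, these values cannot settle it. With a replicate block 0 genes passed. Depth limits Klf15 most, at 121 reads in its lowest library.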
